A study of Mus musculus with 45 samples.

Results

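The genes described here encode collagens and other proteins of the extracellular matrix, 38 symbols in all, measured in mouse brain tumours of 8 genotypes. A gene was taken as the probe set of its symbol with the highest mean over all arrays. Of the 38 genes, 34 had a probe set that matched no other symbol, out of 17097 such genes on the array, and Fbn1, Thbs1, Lama4 and Nid2 had none and were not analysed here. The 34 genes were matched by 63 probe sets. Of the 34, 31 lay above the median of the whole table, 4.79 on the log2 scale, in at least 3 arrays and were tested together with the other genes that did, 11809 in all. Col1a2, Col12a1 and Fbln2 did not reach that level and are given as values only.

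The 45 arrays were of total RNA labelled mouse brain, from a glioblastoma model in the CD-1 nude strain. Every group carried a p53-null background. The design text names retroviral constructs of wild-type PDGFRα or of 6 mutants of this receptor tyrosine kinase, and p53-null primary mouse astrocyte cultures as the cells used. The labels write the groups as EGFRvIII with p53null (8 arrays) and Pdgfra C450 ins (5), Pdgfra D842V (5), Pdgfra E10 del (5), Pdgfra E10 del.v2 (9), Pdgfra E7 del (3), Pdgfra V544ins (9) and Pdgfra WT (1), each with p53null. EGFRvIII is a truncated, constitutively active epidermal growth factor receptor, and it is the other driver of the study. The labels used here give neither the promoter of a construct nor the age of an animal, and nothing in them says that the arrays of a group came from separate animals or cultures, so each p-value covers only the spread from array to array within a group. Numbers in the sample titles ran from 1 to 30 in 21 arrays and from 41 to 64 in 24. All 8 EGFRvIII arrays, the 3 E7 del arrays and the WT array had titles of the upper range, the C450 ins, D842V and E10 del arrays had titles of the lower range, and V544ins and E10 del.v2 had 3 arrays in the lower and 6 in the upper. The labels do not call these ranges batches.

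Fibrillar collagens (types I, III, V and XI) assemble into the banded fibrils of connective tissue, and in the brain they are made mainly by the meninges and by cells around vessels. Basement membranes are thin sheets built from type IV collagen, laminins and nidogens that wrap brain capillaries and line the pial surface. The parenchyma of the adult brain holds little of either and has instead a matrix of hyaluronan, lecticans such as versican, and tenascins. Glioma cells and the vessels of a tumour add fibronectin, tenascin C, thrombospondins and collagens to it, and lysyl oxidases cross-link the collagens.

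Promoters are shown for genes that were lower together in the comparison of drivers given further on. RefSeq lists a promoter, the 250 bases before the gene's start in build GRCm38.p6, for 25 of the 38 genes but not for Fn1. Those of Col5a1 (chr2:27886175-27886424, plus strand), Lamb1 (chr12:31265043-31265292, plus strand) and Thbs2 (chr17:14694263-14694512, minus strand) are printed 5′ to 3′ along the gene, with capitals for matches of 3 promoter motifs on either strand. The first motif searched was CCAAT, which is bound by the transcription factor NF-Y. The next was GGGCGG, the box bound by Sp1 and its relatives. The last was TATAAA, the box that the general transcription factor TFIID binds.
Col5a1: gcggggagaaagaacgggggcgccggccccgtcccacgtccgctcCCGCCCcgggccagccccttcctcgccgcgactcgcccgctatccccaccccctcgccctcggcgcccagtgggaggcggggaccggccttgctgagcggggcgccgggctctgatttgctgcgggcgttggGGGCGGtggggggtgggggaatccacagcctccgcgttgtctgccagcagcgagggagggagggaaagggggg
Lamb1: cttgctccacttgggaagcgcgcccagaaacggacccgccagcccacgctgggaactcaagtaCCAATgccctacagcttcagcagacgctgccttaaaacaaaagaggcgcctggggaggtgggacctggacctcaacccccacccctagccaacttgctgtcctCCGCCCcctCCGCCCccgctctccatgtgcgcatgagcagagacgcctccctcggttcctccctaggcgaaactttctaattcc
Thbs2: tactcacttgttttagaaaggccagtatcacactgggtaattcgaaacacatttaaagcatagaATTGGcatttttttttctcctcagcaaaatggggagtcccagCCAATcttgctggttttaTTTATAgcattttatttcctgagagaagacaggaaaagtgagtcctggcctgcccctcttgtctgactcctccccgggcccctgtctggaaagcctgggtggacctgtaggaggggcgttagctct

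None of the 3 motifs was matched in all 3 promoters. That of Col5a1 was 76.4% G and C with 2 GGGCGG matches, that of Lamb1 62% with 1 CCAAT and 2 GGGCGG matches, and that of Thbs2 46.8% with 2 CCAAT matches and 1 TATAAA match. Among all 32851 promoters of this length, 33.8% held a CCAAT match, 32.7% a GGGCGG match and 12.4% a TATAAA match, and among the 25 matrix genes 11, 16 and 4 did. The percentages count promoters, whereas the matrix genes were counted as genes with a match in any of their promoters, so these are unlike units. A match is a run of letters and not a measured site. Col4a1 and Col4a2, which encode the 2 chains of the commonest type IV collagen, start head to head on chromosome 8. Their RefSeq starts lie on opposite strands and overlap by 22 bases and are printed along the plus strand, since these genes were the most alike pair of members over the arrays.
Col4a1 and Col4a2 starts, chr8:11312805-11312826: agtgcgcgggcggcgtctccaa

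All values below are log2 signals of a probe set, so a difference of 1 is a doubling of the signal, and levels are compared between arrays within a gene and not between genes. The error after a group level is the SD, and that after a difference is its standard error from limma. In bulk RNA, fewer cells of a type and less RNA per cell cannot be told apart.

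The fibrillar collagens varied widely between arrays. The mean of the 6 fibrillar genes, each centred on its own mean over the 45 arrays, ran from -2.0 in E10 del.v2 replicate 2 to 3.18 in D842V replicate 5, with an SD of 0.99. The mean of the 9 measured basement membrane genes ran from -1.58 in the same E10 del.v2 array to 1.67 in EGFRvIII replicate 5, with an SD of 0.76. D842V replicate 5 and C450 ins replicate 5 (2.82) had the highest fibrillar means, followed by EGFRvIII replicates 8, 5 and 4 (1.56, 1.38 and 1.37). EGFRvIII replicates 1, 2, 3 and 7 stood at -0.62, -0.20, -0.30 and -0.20, so the EGFRvIII group itself held both high and low arrays.

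**Figure D1:**
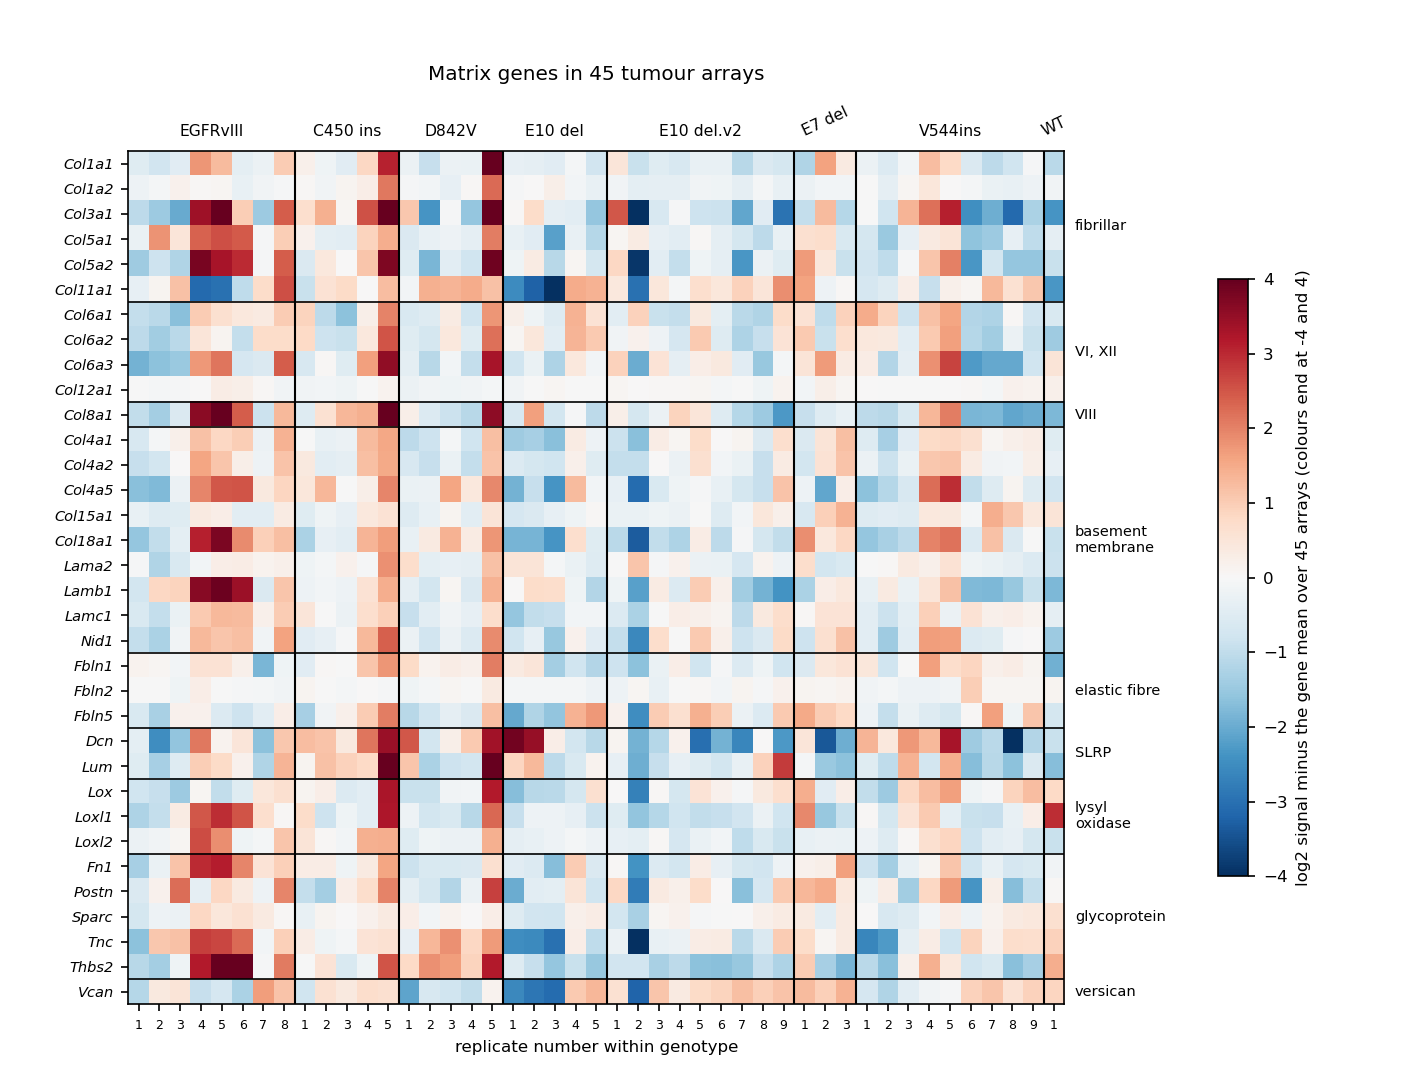
Log2 signal of 34 matrix genes (rows, by role) in 45 arrays (columns, by genotype and replicate), each minus the gene's mean over all arrays, with colours ending at -4 and 4. EGFRvIII replicates 4 to 6 and the last array of C450 ins and of D842V are red over most collagens, and E10 del.v2 replicate 2 is blue over most genes.

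Col1a1 and Col1a2, the chains of type I collagen, gave low signal. Each was read from 1 probe set, and whether the low signal is that of the gene or of the probe set was not tested. Col1a1 lay above the table median in 7 arrays, and its highest values were 8.36 in D842V replicate 5 and 6.88 in C450 ins replicate 5, whereas the other 4 D842V arrays gave 3.58, 2.89, 3.58 and 3.54. Col1a2 passed the table median only in these same arrays, at 4.98 and 4.81, and ran from 2.32 to 3.15 in the remaining 43. Col3a1, the type III collagen of soft and vascular tissue, spanned the widest range of any fibrillar gene, from 2.30 in E10 del.v2 replicate 2 to 11.81 in C450 ins replicate 5. In C450 ins it gave 7.17, 7.91, 6.56, 9.03 and 11.81. In D842V it gave 7.57, 4.11, 6.43, 4.93 and 11.63. The range within D842V was wider than the gap between the highest group mean, 8.49 in C450 ins, and the lowest of a replicated group, 5.42 in E10 del.v2.

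Col5a2, a chain of the type V collagen that sits inside type I and III fibrils, had the same high arrays, with 10.19 in D842V replicate 5, 10.03 in C450 ins replicate 5 and 10.10 as the highest EGFRvIII value. Col3a1 and Col5a2 were correlated across the 45 arrays (r = 0.872), as were Col1a1 and Col3a1 (r = 0.838). These correlations are descriptions over arrays that share each library for both genes, and no p is given. Col11a1, the type XI chain of cartilage that is also made by glial progenitors, did not follow the others. Its r with the mean of the other tested fibrillar genes was -0.06. Its nearest member was versican (r = 0.703), and its r with the mean of the oligodendrocyte progenitor marker genes was 0.80.

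The basement membrane genes differed in their ranges over the arrays, from 2.12 for Col15a1, 2.54 for Col4a2 and 3.23 for Col4a1 to 6.04 for Col4a5, 6.33 for Lamb1 and 7.11 for Col18a1, against 2.66 for Col1a2 to 9.51 for Col3a1 among the fibrillar genes. Col4a1 gave group means from 8.76 ± 0.88 (SD, n = 5) in E10 del to 10.09 ± 0.88 (SD, n = 5) in C450 ins, with EGFRvIII at 10.08 ± 0.74 (SD, n = 8). In E10 del its 5 arrays gave 8.20, 8.29, 7.94, 9.96 and 9.43, so replicates 1 to 3 were low and replicates 4 and 5 lay within the range of the other groups. Col4a1 and Col4a2, the head-to-head pair, had the highest r of any pair of matrix genes (0.902). Nid1, the linker between the laminin and type IV networks, followed Col4a2 (r = 0.886). Lama2, a laminin chain of muscle and vessel walls, had means between 4.89 and 5.45 in the replicated groups and was nearest to Dcn (r = 0.655). Col15a1, a basement membrane proteoglycan of vessels, passed the table median in 4 arrays only, with means of replicated groups from 3.82 in E10 del to 4.73 in E7 del.

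Fibrillar and basement membrane means rose and fell together. Their r over the 45 arrays was 0.824 (Spearman rho 0.728), and 0.798 over the 44 arrays of the replicated groups after each group was centred on its own mean. The r between single genes was much the same inside and across the classes. Its median was 0.585 over the 10 pairs of fibrillar genes, 0.558 over the 36 pairs of basement membrane genes and 0.528 over the 45 pairs with 1 gene of each. The difference between the 2 means, fibrillar minus basement membrane, had an SD of 0.56 over all arrays. It was highest in D842V replicate 5 (1.88), C450 ins replicate 5 (1.27) and E10 del.v2 replicate 1 (1.27), and lowest in E7 del replicate 3 (-1.10) and V544ins replicates 6 and 8 (-0.88 and -0.79).

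By genotype, the fibrillar mean was 0.80 ± 1.20 (SD, n = 5) in C450 ins, 0.47 ± 0.90 (SD, n = 8) in EGFRvIII, 0.44 ± 1.55 (SD, n = 5) in D842V, 0.17 ± 0.51 (SD, n = 3) in E7 del, -0.26 ± 0.78 (SD, n = 9) in V544ins, -0.46 ± 0.72 (SD, n = 9) in E10 del.v2 and -0.55 ± 0.51 (SD, n = 5) in E10 del. No neighbours in this order were farther apart than their SDs. The basement membrane mean had a similar order, with EGFRvIII at 0.48 ± 1.02 (SD, n = 8), C450 ins at 0.39 ± 0.76 (SD, n = 5) and E7 del at 0.22 ± 0.45 (SD, n = 3) above, and E10 del.v2 at -0.36 ± 0.56 (SD, n = 9) and E10 del at -0.55 ± 0.49 (SD, n = 5) below. The single WT array gave -1.20 and -0.72. The balance of the classes differed by 0.07 between the mutants and EGFRvIII, against an SD of 0.396 over the 8 EGFRvIII arrays, and it took either sign among the alternatives, from -0.29 with titles 41 to 64 alone to 0.14. The mutants with titles 41 to 64 were E7 del, E10 del.v2 and V544ins alone.

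**Figure D2:**
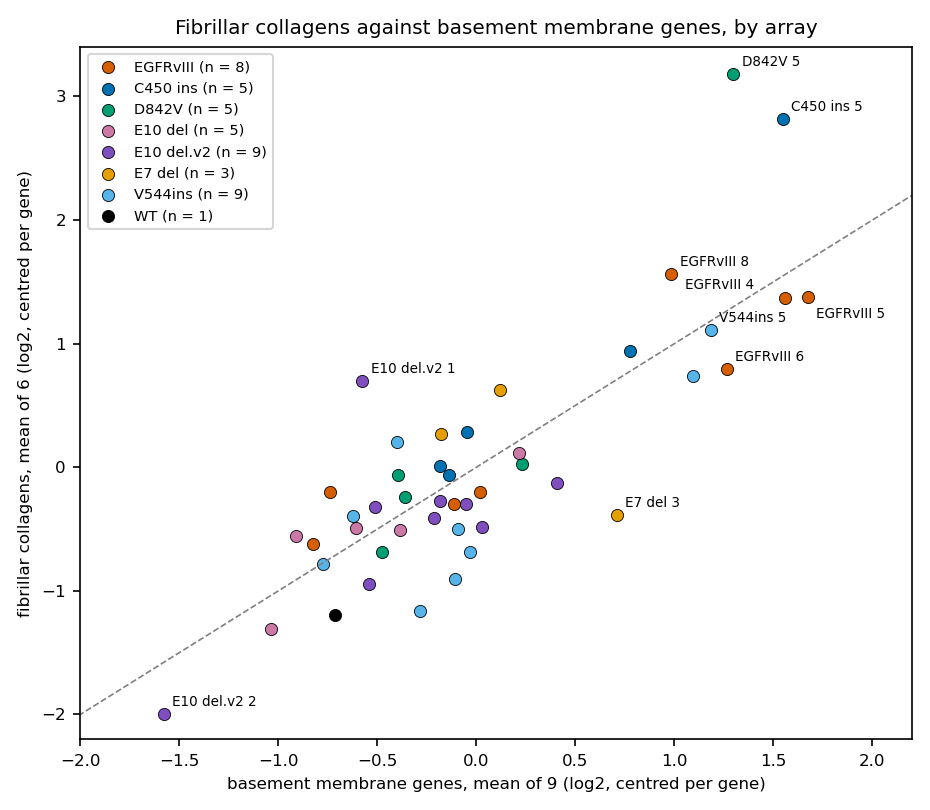
Mean of the 6 fibrillar collagens against the mean of the 9 basement membrane genes, each gene centred on its mean over all arrays (log2), with 1 point per array coloured by genotype and a dashed line where both are equal. The points follow the line (r = 0.824), with D842V replicate 5 and C450 ins replicate 5 above it at fibrillar means of 3.18 and 2.82.

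The arrays with high collagen also differed in marker genes of several cell types. Each marker gene was centred on its mean over the 45 arrays and averaged over its list. The fibroblast and meningeal list had 19 of 20 genes measured, of which 5 (Dpt, Pi16, Clec3b, Ptgdr and Twist2) never passed the table median. Its mean was highest in C450 ins replicate 5 (0.85), EGFRvIII replicate 5 (0.82), E10 del replicate 2 (0.80) and D842V replicate 5 (0.79), and its range was -0.46 to 0.82 in EGFRvIII and -0.58 to 0.85 over the 6 mutants. The pericyte and smooth muscle list, with 13 of 15 genes measured and Myh11, Ndufa4l2 and Anpep never above the median, ran from -0.31 to 0.88 in EGFRvIII and from -0.39 to 0.59 over the mutants. Across arrays the fibrillar mean had an r of 0.73 with the pericyte list, 0.64 with the fibroblast list and 0.43 with the microglia and macrophage list. The basement membrane mean had 0.77, 0.45 and 0.63 with the same lists. With the fibrillar and the basement membrane mean, the endothelial list had 0.31 and 0.35 and the astrocyte list -0.44 and -0.49. The myelinating oligodendrocyte list had -0.08 and -0.15, and the oligodendrocyte progenitor list 0.03 and 0.02. The r with the neuron list was -0.53 for the fibrillar and -0.71 for the basement membrane mean. That list stood at -2.58 in D842V replicate 5 and -2.50 in C450 ins replicate 5, against 3.10 in E10 del.v2 replicate 2. Its lowest mean was -3.72 in V544ins replicate 5, and it stood at 0.48 in EGFRvIII replicate 4. In E7 del replicate 3 it was -3.20, with a fibrillar mean of -0.39. The part of these cells in the collagen levels was not tested.

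**Figure D3:**
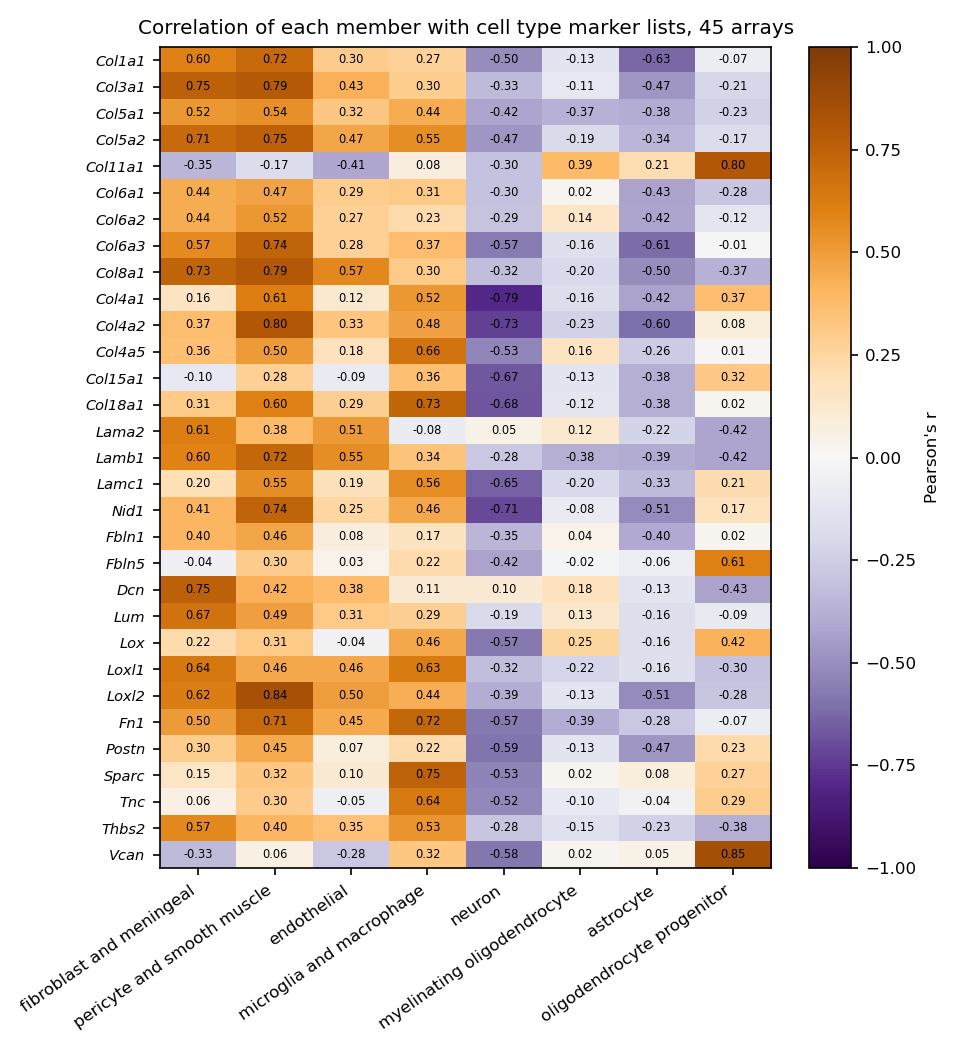
Pearson r over 45 arrays between each of the 31 tested matrix genes (rows) and the mean of each of 8 cell type marker lists (columns), as a description with no test. Most collagens are orange (positive r) for the pericyte list and purple (negative r) for the neuron list, whereas Vcan (0.85), Col11a1 (0.80) and Fbln5 (0.61) are orange for the oligodendrocyte progenitor list.

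Genes outside the members whose signal was nearest to the mean of the fibrillar collagens were Mmp13 (r = 0.866), Ms4a7 (0.827), Dkk2 (0.822), Mmp9 (0.806), Pdlim1 (0.787), Gimap4 (0.786), Anxa1 (0.786) and Ppic (0.780). Those nearest to the basement membrane mean were Myo1c (r = 0.916), Kdelr3 (0.911), Anxa2 (0.909), Slc25a24 (0.906), Antxr2 (0.904), Pgd (0.904), Iqgap1 (0.899) and Tmem14c (0.892). Mmp13 and Mmp9 encode a collagenase and a gelatinase.

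The next comparison asked whether matrix genes differ between tumours driven by a mutant PDGFRA and those driven by EGFRvIII. Tumours with a PDGFRA mutant had lower signal of Col5a1, a fibrillar collagen chain, Lamb1, the laminin β1 chain, Fn1, fibronectin, and Thbs2, the matricellular glycoprotein thrombospondin 2. These 4 of the 31 tested matrix genes passed the test and all were lower in the mutants, while none was higher. Of all 11809 genes 8.9% were called, 5.35% as lower and 3.55% as higher in the mutants. At an unadjusted p under 0.05, 7 matrix genes (22.6%) passed, all lower, against 27.5% of all genes in either direction and 15.4% as lower. The differences of 19 matrix genes (61.3%) and of 52.4% of all genes were below 0, and the median difference was -0.33 for the matrix genes and -0.02 for all genes.

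Col5a1 was at 6.37, 8.43, 7.12, 8.98, 9.20, 9.07, 6.58 and 7.60 in EGFRvIII replicates 1 to 8. It was at 6.79, 6.24, 6.21, 7.53 and 8.08 in C450 ins, at 6.04, 6.32, 6.43, 6.27 and 8.67 in D842V, at 6.31, 6.16, 4.45, 6.33 and 5.49 in E10 del and at 7.28, 7.34 and 6.03 in E7 del. The lowest, median and highest values were 5.56, 6.29 and 6.96 in E10 del.v2 and 5.02, 5.92 and 7.15 in V544ins. EGFRvIII replicates 4, 5 and 6 lay above every mutant array, and 34 of 36 mutant arrays lay below the EGFRvIII mean, but the ranges overlapped. The mean was 7.92 ± 1.15 (SD, n = 8) in EGFRvIII and 6.44 over the 6 mutant means, a difference of -1.48 ± 0.33 or 2.80-fold lower (limma, Benjamini-Hochberg adjusted p = 0.00522). Its other probe sets gave -1.14 and -0.41.

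Lamb1 was at 6.44, 8.02, 8.07, 10.82, 11.11, 10.61, 6.59 and 8.28 in EGFRvIII. It was at 6.97, 7.06, 6.99, 7.74 and 8.65 in C450 ins, at 6.81, 6.43, 7.25, 6.60 and 8.55 in D842V, at 7.18, 7.90, 7.89, 7.01 and 6.0 in E10 del and at 5.91, 7.45 and 7.61 in E7 del, with 4.78, 6.62 and 8.21 as lowest, median and highest in E10 del.v2 and 5.38, 6.90 and 8.36 in V544ins. EGFRvIII replicates 4, 5 and 6 again stood above all mutant arrays, of which the highest was at 8.65, and the other 5 lay within the mutants' range. All 36 mutant arrays were below the EGFRvIII mean of 8.74 ± 1.87 (SD, n = 8), and the difference was -1.76 ± 0.47 or 3.39-fold lower (limma, adjusted p = 0.0171). The other probe sets of Lamb1 gave -2.01, -1.58 and -1.08.

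Fn1 was at 8.06, 9.11, 10.52, 12.35, 12.50, 11.34, 9.91 and 10.31 in EGFRvIII. The mutant arrays gave 9.67, 9.66, 9.19, 9.73 and 10.95 in C450 ins, 8.50, 8.75, 8.75, 8.79 and 10.03 in D842V, 8.93, 8.81, 7.66, 10.40 and 8.78 in E10 del, and 9.55, 9.60 and 11.001 in E7 del. In E10 del.v2 the lowest, median and highest values were 6.99, 8.83 and 9.66, and in V544ins 8.03, 8.75 and 10.47. EGFRvIII replicates 4, 5 and 6 were the highest of all arrays, and the other 5 lay within the mutants' range. The difference was -1.26 ± 0.37 or 2.40-fold lower (limma, adjusted p = 0.0271), from a mean of 10.51 ± 1.53 (SD, n = 8) to 9.25.

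Thbs2 was at 4.05, 3.80, 4.99, 8.33, 9.34, 9.91, 5.13 and 7.25 in EGFRvIII. It was at 5.15, 5.71, 4.55, 5.0 and 7.69 in C450 ins, at 5.97, 6.98, 6.84, 6.07 and 8.35 in D842V, at 4.67, 4.25, 3.63, 4.26 and 3.65 in E10 del and at 6.19, 3.84 and 3.32 in E7 del. In E10 del.v2 it ran from 3.51 to 4.39 with a median of 3.94, and in V544ins from 3.49 to 6.59 with a median of 4.37. EGFRvIII replicates 5 and 6 lay above every mutant array and replicates 1 and 2 below the mutant mean of 4.93, and the D842V mean of 6.84 ± 0.96 (SD, n = 5) was above the EGFRvIII mean of 6.60 ± 2.42 (SD, n = 8). The difference over the 6 mutant means was -1.67 ± 0.51 or 3.18-fold lower (limma, adjusted p = 0.0356). The WT array gave 6.26 for Col5a1, 5.37 for Lamb1, 9.23 for Fn1 and 6.62 for Thbs2, of which the Col5a1 and Lamb1 values were below all 8 EGFRvIII arrays.

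**Figure D4:**
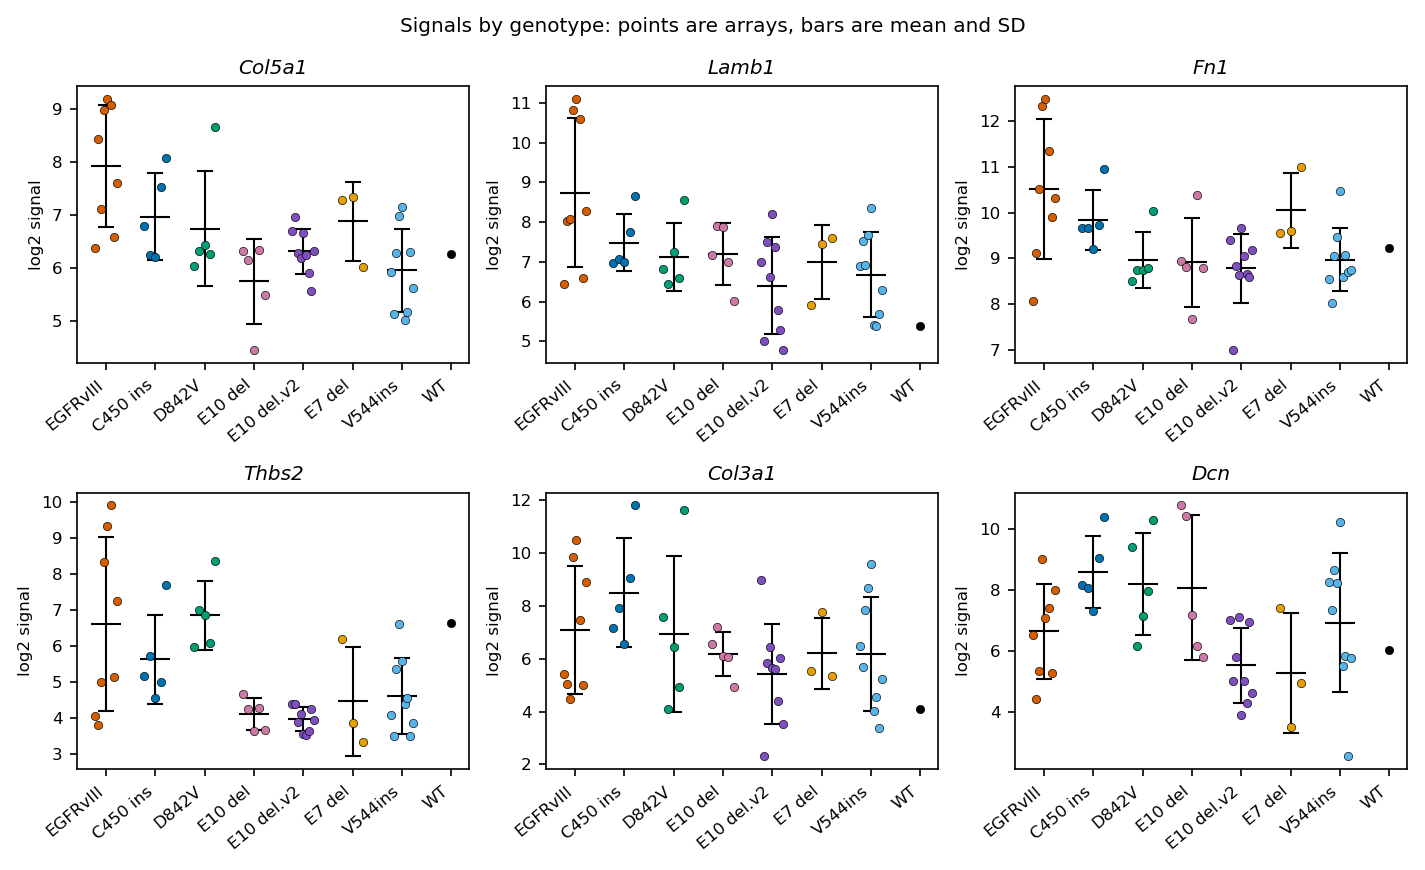
Log2 signal of Col5a1, Lamb1, Fn1, Thbs2, Col3a1 and Dcn by genotype, with 1 point per array and bars for the mean and SD. For the first 4 genes the highest EGFRvIII arrays (9.20, 11.11, 12.50 and 9.91) stand above all mutant arrays, and other EGFRvIII arrays lie among them.

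These calls rested on 3 of the 8 EGFRvIII arrays. Without EGFRvIII replicates 4, 5 and 6 none of the 31 matrix genes was called, and the differences were -0.78 (adjusted p = 0.477) for Col5a1, -0.50 (0.788) for Lamb1, -0.33 (0.818) for Fn1 and -0.11 (0.955) for Thbs2. The number of all genes called was then 54 instead of 1051. When arrays were left out singly, Col5a1 stayed called in all 44 fits, and it alone was called when EGFRvIII replicate 4, 5 or 6 was left out. The adjusted p of Lamb1 was then 0.0715, 0.112 and 0.0739, that of Fn1 0.106, 0.163 and 0.0912, and that of Thbs2 0.112, 0.202 and 0.164. Thbs2 was also not called without EGFRvIII replicate 8 (0.062), E7 del replicate 2 (0.0509) or E7 del replicate 3 (0.0541). Without EGFRvIII replicate 1, 7 genes were called, the 4 named and Tnc (-1.72, adjusted p = 0.0175), Loxl1 (-1.35, 0.0322) and Loxl2 (-0.83, 0.0329). For the fits that left out 1 array, the share of all genes called is not given here. Without EGFRvIII replicate 2, Loxl2 (0.0456) and Loxl1 (0.0485) were called too, as was Loxl2 without D842V replicate 5 (0.0445). Without E10 del replicates 1 to 3 and E10 del.v2 replicate 2, Col5a1 (0.0096) and Lamb1 (0.0219) were called, with Fn1 at 0.0546 and Thbs2 at 0.057.

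**Figure D5:**
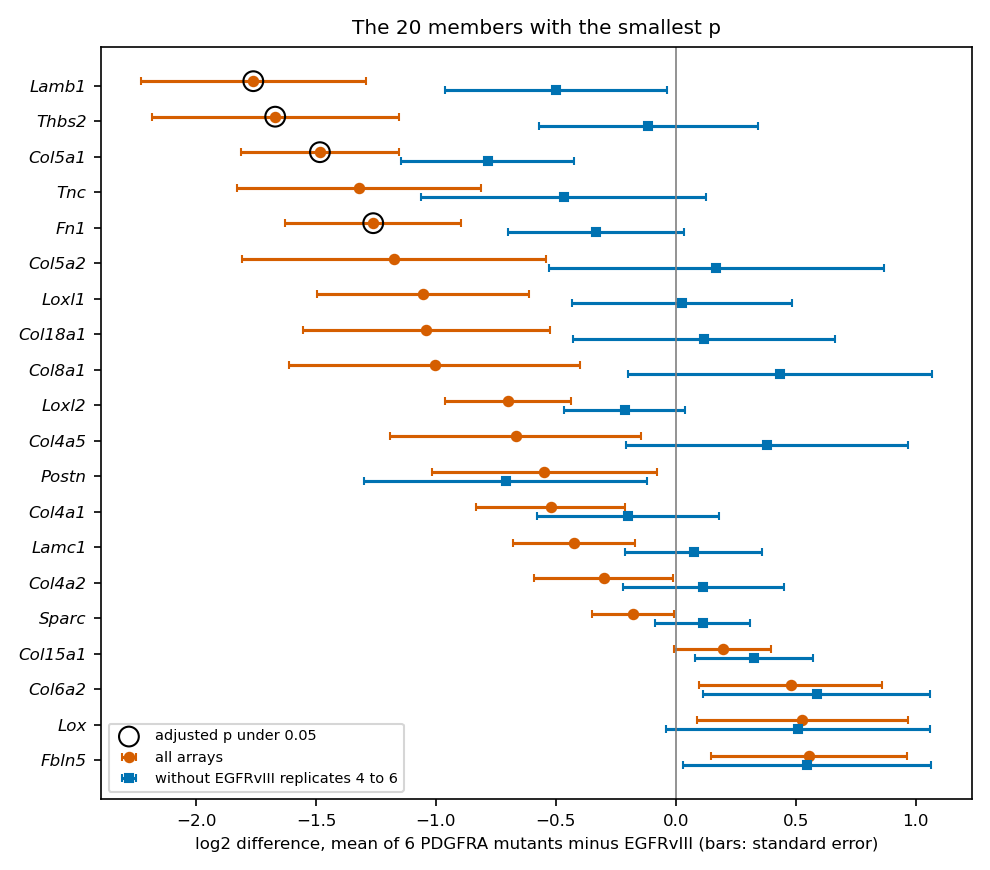
Mean of the 6 PDGFRA mutants minus EGFRvIII (log2, bars for the standard error) for the 20 matrix genes with the smallest p, with all arrays (circles) and without EGFRvIII replicates 4 to 6 (squares), and rings at an adjusted p under 0.05. Lamb1 moves from -1.76 to -0.50 and Thbs2 from -1.67 to -0.11, and 8 genes change sign.

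EGFRvIII replicates 4, 5 and 6 had microglia and macrophage list means of 1.79, 1.58 and 0.76, whereas the list ran from -0.56 to 1.79 over EGFRvIII and from -1.66 to 0.84 over the mutants. Their oligodendrocyte progenitor list means were -2.39, -3.39 and -1.54. Of the 17 microglia and macrophage genes tested 1 was called lower in the mutants (median difference -0.39), of the 12 fibroblast genes 3 were called lower (median 0.04), and of the 8 pericyte genes none (median -0.01). Of the 15 neuron genes 1 was called higher (median 1.0). With a covariate for host brain, taken as the mean over the neuron and myelin lists, only Col5a1 was called (-1.17, adjusted p = 0.0229), with Lamb1 at -1.38 (0.0659), Fn1 at -0.83 (0.116) and Thbs2 at -1.32 (0.12). All EGFRvIII arrays had titles of the upper range. With the title range as a block only Lamb1 was called (-2.37, adjusted p = 0.0224), with Col5a1 at -1.45 (0.0515), Fn1 at -1.22 (0.156) and Thbs2 at -1.52 (0.207). Within titles 41 to 64 alone the differences were -1.52 (0.0693), -2.27 (0.0868), -1.23 (0.185) and -2.21 (0.126) for Col5a1, Lamb1, Fn1 and Thbs2, and no matrix gene was called. The mutants of that fit were E7 del, E10 del.v2 and V544ins alone, so its differences are not those of the 6 mutants.

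By role, among the 5 fibrillar genes tested 1 was lower and 4 had differences below 0 (median -0.52). Beside Col5a1, the differences were -1.18 ± 0.63 for Col5a2 (adjusted p = 0.22), -0.52 for Col3a1 (0.694), -0.14 for Col1a1 and 0.50 for Col11a1 (0.571). Among the 9 basement membrane genes 1 was lower and 7 had differences below 0 (median -0.42). Beside Lamb1, they were -1.04 for Col18a1 (adjusted p = 0.182), whose protein releases endostatin, -0.67 for Col4a5 (0.405), -0.52 for Col4a1 (0.269), -0.42 for Lamc1, a laminin γ chain (0.274), -0.30 for Col4a2 (0.503), -0.33 for Nid1, 0.19 for Lama2 and 0.20 for Col15a1 (0.531).

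Of the 5 adhesive and matricellular glycoproteins 2 were lower and all 5 had differences below 0 (median -1.26). Tenascin C, Tnc, gave -1.32 ± 0.51 (adjusted p = 0.0895) with 33 of 36 mutant arrays below the EGFRvIII mean of 9.63 ± 1.5 (SD, n = 8). Periostin, Postn, gave -0.55 (0.449) and Sparc, a collagen-binding glycoprotein, -0.18 (0.503). Sparc had the steadiest level of these genes, with group means from 11.23 in E10 del to 11.69 in EGFRvIII. The lysyl oxidases, which cross-link collagen and elastin, gave -0.70 ± 0.26 for Loxl2 (adjusted p = 0.081), -1.05 ± 0.44 for Loxl1 (0.116) and 0.53 for Lox (0.432). Loxl1 was as high in the WT array (7.25) as in the highest EGFRvIII array (7.25).

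The type VI collagen chains, which form beaded filaments around cells, had differences above 0 and none passed the test (median 0.12). That of Col6a2 was 0.48 (adjusted p = 0.411), and Col6a1 and Col6a2 were correlated over arrays (r = 0.887). Col8a1, a short-chain collagen of vessel walls, gave -1.01 (0.276), and the elastic fibre proteins Fbln5 and Fbln1 gave 0.56 (0.376) and 0.18. Col12a1 and Fbln2, never above the table median, had means of 2.87 and 2.55 over the 45 arrays. Vcan, the large hyaluronan-binding proteoglycan versican, gave 0.03, with an EGFRvIII mean of 10.80 ± 1.11 (SD, n = 8). The small proteoglycans decorin and lumican, Dcn and Lum, gave 0.46 and 0.11.

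The surrounding matrix genes were read in the same comparison. Of 16 tested genes of collagen synthesis and processing, from 25 listed, 1 was higher and 1 lower (median -0.42). Mia3, which exports procollagen from the endoplasmic reticulum, rose by 0.29 ± 0.09 (adjusted p = 0.034), and Pcolce2, an enhancer of procollagen cleavage, gave -0.87 ± 0.28 (0.0465). Serpinh1, the collagen chaperone, gave -1.15 (0.0574) and Pcolce -1.08 (0.066). Of 23 tested proteases and inhibitors, from 27 listed, 2 were lower (median -0.34), namely Mmp14, a membrane-bound collagenase, at -1.39 ± 0.26 (0.00112) and Mmp19 at -0.96 (0.0278). Plau gave -0.76 (0.107) and Timp1 -1.29 (0.12).

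Of 19 tested matrix receptors, from 26 listed, 1 was lower (median -0.57). It was Itga8, an integrin subunit that binds fibronectin and tenascin, at -1.64 ± 0.47 (adjusted p = 0.0239). Itga6 gave -0.59 (0.0609), Itga9 0.84 (0.0625) and Itga3 -0.68 (0.0742). Of 10 tested genes of the brain's hyaluronan matrix, from 13 listed, none was called (median 0.52), with Bcan, brevican, at 1.32 (0.0674), Tnr, tenascin R, at 1.32 (0.0764), Hapln4 at 0.70 and Ncan at 0.54. Of 9 further basement membrane genes tested, from 19 listed, 1 was lower (median -0.23). It was Ntn4, a laminin-related netrin, at -1.01 ± 0.21 (0.00314), and Col4a6 gave -0.83, Lamb2 -0.44 and Smoc1 0.69.

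Among the 6 PDGFRA mutants, which alter different regions of the receptor, no matrix gene passed limma's moderated F test, against 0.576% of all genes. At an unadjusted p under 0.05, 6 of 31 matrix genes (19.4%) and 18.2% of all genes did. The smallest adjusted p-values were those of Thbs2 (0.130), Dcn (0.159), Fbln1 (0.183), Tnc (0.231) and Vcan (0.253). When only titles 1 to 30 were fitted, Thbs2 (0.0244) and Tnc (0.0312) were called. That fit held no E7 del array, and its share of all genes called is not given here. Each mutant was then set against the mean of the other 5, so that these comparisons share arrays. The median difference of the fibrillar genes and of the basement membrane genes was 0.74 and 0.59 in C450 ins, 0.44 and 0.00 in D842V, 0.40 and 0.43 in E7 del, -0.49 and 0.10 in V544ins, -0.58 and -0.73 in E10 del, and -0.70 and -0.30 in E10 del.v2.

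Among the 6 mutants the means of Thbs2 and Tnc were highest in D842V, a substitution in the kinase domain. The 5 D842V arrays of Thbs2, all between 5.97 and 8.35, lay above every E10 del and E10 del.v2 array. Against the mean of the other 5 mutants the difference was 2.30 ± 0.63 (limma, adjusted p = 0.0738). That of Tnc, with D842V arrays at 8.17, 9.82, 10.32, 9.32 and 10.19, was 1.5 (0.306). No matrix gene was called for D842V, against 0.584% of all genes, and 2 of 31 had an unadjusted p under 0.05 against 11.7% of all genes. The differences of 8 of 31 were below 0, against 52% of all genes. Only replicate 5 had a high fibrillar mean, 3.18, against -0.06, -0.68, 0.02 and -0.24 in D842V replicates 1 to 4. Thbs2 was called when EGFRvIII replicate 6 (0.0449), E7 del replicate 1 (0.0397) or V544ins replicate 4 (0.0474) was left out. With titles 1 to 30 alone, which hold no E7 del array, it was 2.35 (0.00544) and Tnc 1.91 (0.0249). With the host brain covariate Thbs2 was 2.67 (0.0145) and Tnc 2.02 (0.037). The shares of all genes called in these fits are not given here. Fbln1 gave 0.70, Vcan -1.05 and Col11a1 1.10 in D842V, none called. Vcan was -1.62 (0.0176) when E10 del replicates 1 to 3 and E10 del.v2 replicate 2 were left out.

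In E10 del the glial matrix genes separated the replicates. Vcan was at 8.24, 7.96 and 7.76 in replicates 1 to 3 and at 11.88 and 12.15 in replicates 4 and 5. Col11a1 was at 6.79, 6.07 and 5.30 against 10.80 and 10.69, and Tnc at 6.0, 5.93 and 5.51 against 8.76 and 7.47. The first 3 of these arrays had neuron list means of 2.43, 2.37 and 1.91 and oligodendrocyte progenitor list means of -2.01, -2.10 and -2.61. The part of these cells in the difference was not tested. Against the other mutants Tnc was -1.89 ± 0.63 (limma, adjusted p = 0.0785), Col11a1 -1.84, Vcan -1.47, Col4a1 -0.95 and Lamc1 -0.82. No matrix gene was called, against 0.796% of all genes, and 8 of 31 (25.8%) had an unadjusted p under 0.05 against 27.7% of all genes. The differences of 26 of 31 (83.9%) were below 0, against 56.6% of all genes, with a median of -0.58 against -0.07.

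Calls appeared in E10 del when single arrays were left out. The shares of all genes called in those fits are not given here, so the counts are not read as results about the matrix genes. Without E10 del replicate 4, Tnc (-2.40, adjusted p = 0.0259), Col11a1 (-2.55, 0.0272), Vcan (-2.04, 0.029) and Col4a1 (-1.25, 0.0414) were called. Without E10 del replicate 5, Vcan (-2.11, 0.0239), Col11a1 (-2.53, 0.0271) and Tnc (-2.08, 0.0435) were. Without E10 del.v2 replicate 2, Tnc (-2.0, 0.026) and Vcan (-1.56, 0.0452) were.

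In E10 del.v2 the group means of the matrix genes lay low without a call, and replicate 2 had the lowest class means. Its fibrillar mean was -2.0, and the other arrays of the group ran from -0.95 to 0.69, all but replicate 1 below 0. Its basement membrane mean was -1.58, and the others ran from -0.58 to 0.41, on both sides of 0. The shares of differences below 0 without replicate 2 are not given here. The differences of 28 of 31 (90.3%) were below 0, against 50.5% of all genes, and the median was -0.46 against -0.00. No gene of any kind was called (0%), and 4 matrix genes (12.9%) had an unadjusted p under 0.05 against 6.01% of all genes. Decorin, a collagen-binding proteoglycan, gave -1.89 ± 0.67 (limma, adjusted p = 0.807), Fbln1 -0.78, Col18a1 -1.17, Thbs2 -1.16 and Loxl2 -0.48. Dcn ran from 3.92 to 7.11 in E10 del.v2 with a median of 5.04. In C450 ins its arrays gave 8.15, 8.07, 7.31, 9.06 and 10.38, all above that range.

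In C450 ins the group means of the matrix genes lay high without a call, but only replicates 4 and 5 had high class means. The fibrillar mean was -0.07, 0.29 and 0.01 in replicates 1 to 3, against 0.94 and 2.82 in replicates 4 and 5. The basement membrane mean was -0.14, -0.05 and -0.18, against 0.77 and 1.55. The difference of 1 of 31 (3.23%) was below 0, against 42.9% of all genes, and the median was 0.60 against 0.03. No gene of any kind was called (0%), and 5 matrix genes (16.1%) had an unadjusted p under 0.05 against 3.66% of all genes. Col3a1 gave 2.32 ± 1.0, Col8a1 1.80, Dcn 1.78, Lum 1.66 and Loxl2 0.88. Lum was at 10.01 in replicate 5 against 5.76, 6.84, 6.56 and 6.44 in the others, whereas Dcn was above 7 in all 5 arrays.

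In E7 del, with 3 arrays, no matrix gene was called, against 0.356% of all genes, and 3 had an unadjusted p under 0.05 (17% of all genes). The differences of 8 were below 0, against 45% of all genes. Dcn was at 7.40, 3.52 and 4.96, for a difference of -2.18 ± 1.04 (limma, adjusted p = 0.282). Vcan was at 12.10, 11.79 and 12.23, for a difference of 1.46, and Postn gave 1.29, Fbln5 1.13 and Col15a1 0.64. The median over the matrix genes was 0.38 against 0.05 for all genes. In V544ins no gene of any kind was called (0%), and 0 of 31 matrix genes had an unadjusted p under 0.05 against 4.44% of all genes. The differences of 18 were below 0, against 46% of all genes. The 5 with the smallest p gave -0.88 for Col8a1, -0.69 for Lum, -0.66 for Col6a3, -0.58 ± 0.32 for Col5a1 and 0.25 for Col15a1, with a median of -0.12 against 0.02.

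V544ins and E10 del.v2 were the groups with titles in both ranges, and the 18 arrays allowed the ranges to be compared. Col15a1 was higher with titles 41 to 64 by 0.71 ± 0.18 (limma, adjusted p = 0.0359), and it was the only matrix gene of 31 called, against 5.47% of all genes, 1.23% as higher. It passed the filter through 4 arrays, E7 del replicates 2 and 3 and V544ins replicates 7 and 8, all with titles of the upper range. The filter thus favoured the side where Col15a1 was higher, so its calls here and within V544ins cannot count as support for a difference. At an unadjusted p under 0.05, 2 matrix genes and 26.8% of all genes passed. Col18a1 gave 1.02, Col4a1 0.66, Col4a2 0.49 and Lamb1 -1.0, none called. In V544ins Col15a1 was at 3.66, 3.70 and 3.65 in replicates 1 to 3, which had the lower titles, and from 4.09 to 5.62 in the other 6, with no overlap. In E10 del.v2 the lower titles were those of replicates 1, 3 and 6, which gave 3.89, 3.98 and 3.66, and the other 6 ran from 3.89 to 4.62, so that the ranges overlapped.

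Within V544ins 3 matrix genes were called, Col15a1 (1.10, adjusted p = 0.00844), Col4a1 (1.24, 0.0397) and Col18a1 (2.0, 0.0424), against 29.7% of all genes. Within E10 del.v2 no gene was called (0%), with differences of 0.33 for Col15a1, 0.07 for Col4a1 and 0.03 for Col18a1. The difference between the 2 genotypes passed the test for 0.0339% of all genes and for no matrix gene, with Col15a1 at 0.78 (adjusted p = 0.169). The neuron list stood at 2.14, 1.63 and 2.11 in V544ins replicates 1 to 3 and from -3.72 to -0.44 in the other 6. Its part in the difference was not tested. The call of Col15a1 was lost in 10 of the 18 fits that left out an array, namely V544ins replicates 1, 2, 3 and 8 (0.086, 0.0955, 0.0515 and 0.0543) and E10 del.v2 replicates 1, 3, 6, 7, 8 and 9 (0.108, 0.0661, 0.0793, 0.0535, 0.0597 and 0.0567). Without E10 del.v2 replicate 2, 6 matrix genes were called higher with titles 41 to 64, Col15a1 (0.74, 0.00827), Col4a1 (0.81, 0.0146), Vcan (0.68, 0.0217), Col18a1 (1.25, 0.0291), Sparc (0.44, 0.0321) and Tnc (1.01, 0.0458). The share of all genes called in that fit is not given here, so the count is not read as a result about the matrix genes.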

How the data were processed

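RNA from mouse brain with tumours of 8 genotypes was measured on 45 Affymetrix 3′ IVT arrays, from 100 ng of total RNA labelled with biotin, per the labels' protocols. For each of 45141 probe sets the authors deposited a log2 signal made with RMA, per the submitters' processing notes. Its version and settings are not given in the sources used here. Values ran from 1.46 to 13.82, with array medians from 4.66 to 4.85, and correlations between arrays from 0.809 to 0.994 for any pair, so that no array repeated another. Precision is limited by how many arrays a group has.

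Of the probe sets 28898 matched 1 symbol, 551 several and 15692 none, by the platform annotation. The probe set with the highest mean stood for a gene. Genes above the table median in at least 3 arrays entered lmFit and eBayes of limma 3.58.1 (R 4.3.3), with a mean for each of the 8 genotypes and no covariate. The mutants were the unweighted mean of 6 group means, and each mutant was set against the mean of the other 5. P-values were adjusted by Benjamini-Hochberg over all 11809 genes, and under 0.05 was called. The procedure was tested on simulated data. Class means and correlations are descriptions without a test.

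The members, the gene lists and the marker lists were chosen with earlier results of these data known. Named with values were the 20 members with the smallest p against EGFRvIII, 5 in each other comparison, every called member, 4 genes of each pathway list, and the 8 genes nearest to each class mean. Further members are given as values. Alternatives were the filter, the probe set rule, quantile normalisation, centring, the title range as a block or either range alone, a host brain covariate, array weights, a trended robust prior, fits without 4 E10 del or E10 del.v2 arrays or without EGFRvIII replicates 4 to 6, and each array left out. Chosen after seeing the data were the fits without C450 ins replicate 5 and D842V replicate 5, the neuron list as a covariate, and the fibrillar mean without Col11a1.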

Additional observations from a re-analysis of the deposited data

Results flagged for a closer look

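Of 180 sets of values, each of 1 gene or class mean in 1 genotype of 4 to 10 arrays, 27 had a highest or lowest array set apart from the rest by Dixon's criterion, at a level where chance sets apart about 5% of such sets. The 27 lay in 7 arrays, and genes within an array are not independent.

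D842V replicate 5 was the highest of its group in the fibrillar mean (3.18) and in the fibrillar minus basement membrane difference (1.88). It was also the highest in Col5a1 (8.67), Col5a2 (10.19), Col6a3 (9.50), Col8a1 (9.67), Fn1 (10.03), Postn (8.73), Lox (9.19), Loxl1 (6.59) and Loxl2 (4.81). C450 ins replicate 5 was the highest of its group in the same difference (1.27), Lum (10.01) and Lox (9.27).

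E10 del.v2 replicate 2 was the lowest of its group in the basement membrane mean (-1.58), Col4a5 (4.29), Col11a1 (6.31), Col18a1 (3.75), Fn1 (6.99), Fbln5 (5.29), Lox (3.30), Tnc (3.45) and Vcan (7.63). E10 del.v2 replicate 1 was the highest in the fibrillar minus basement membrane difference (1.27). Single low values were Vcan in C450 ins replicate 1 (10.05), Col11a1 in D842V replicate 1 (9.21) and Fbln1 in EGFRvIII replicate 7 (4.15).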

How the results depend on the processing

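No paired analysis was possible because the labels give no replicate numbers, and the numbers used here follow the order of the samples. Against EGFRvIII, where 4 matrix genes were called, 1 was called with the title range as a block, 1 with the host brain covariate, 2 with array weights, 2 without E10 del replicates 1 to 3 and E10 del.v2 replicate 2, 0 with titles 41 to 64 alone and 0 without EGFRvIII replicates 4 to 6. Genes of any kind called were 1051 at first, 310, 657, 80 and 54 with the block, the covariate, titles 41 to 64 and without those EGFRvIII arrays. For the array weights and the fit without the E10 del and E10 del.v2 arrays, the number of all genes called against EGFRvIII is not given here. Leaving out 1 array gave 1 to 7 matrix genes against EGFRvIII, 0 to 1 for D842V, 0 to 4 for E10 del, 0 to 6 for the title ranges and 0 for each other comparison. The shares of all genes called in those fits are not given here. Among the mutants, titles 41 to 64 hold E7 del, E10 del.v2 and V544ins alone, and titles 1 to 30 lack E7 del. The title range comparison gave 0 with all arrays in the fit and 0 with the host brain covariate. With titles 1 to 30 alone the F test and D842V each called 2, with the host brain covariate D842V called 2, and without the 4 E10 del and E10 del.v2 arrays it called 1. Array weights, from 0.175 to 9.94, called 26 matrix genes in the F test, 4 for C450 ins, 11 for D842V, 17 for E10 del, 6 for E10 del.v2, 16 for E7 del and 8 for V544ins, with 10855 of 11809 genes called in the F test, and the cause was not tested. The shares of all genes called for the single mutants with array weights are not given here. Those counts are therefore not read as results about the matrix genes.

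Differences that changed sign, none called with all arrays, were Sparc with the block (0.018), Col4a2 with that covariate (0.15) and, when EGFRvIII replicates 4 to 6 were left out, Loxl1 (0.025), Col18a1 (0.12), Col5a2 (0.17), Lamc1 (0.075), Col8a1 (0.43), Col4a5 (0.38), Sparc (0.11) and Col4a2 (0.11). No scaling alternative moved the count of matrix genes called against EGFRvIII. The third probe set of Fbln1, never above the table median, had an r of -0.23 with the set used, and the second of Nid1 gave 0.11 where the first gave -0.33. Probe sets near the table median, such as those of Col1a1, Col15a1 and Loxl2, are limited by their signal over background.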

Other observations

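With the neuron list alone as a covariate, an alternative chosen after seeing the data, 3 of the 4 matrix genes stayed called against EGFRvIII, Col5a1 (-1.32, adjusted p = 0.00699), Lamb1 (-1.60, 0.025) and Fn1 (-1.0, 0.0414), and Thbs2 had an adjusted p of 0.0544 (limma). Without C450 ins replicate 5 and D842V replicate 5, also chosen later, 6 were called, those 4 at -1.61, -1.87, -1.35 and -1.82 with Loxl1 (-1.27, 0.0277) and Loxl2 (-0.79, 0.0346). The shares of all genes called in both fits are not given here. The fibrillar minus basement membrane difference between the mutants and EGFRvIII was -0.12 when Col11a1 was left out of the fibrillar mean.

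Several matrix genes followed a gene of another role more closely than any of their own. Lamb1 and Loxl2 were nearest to Col8a1 (r = 0.806 and 0.810 over 45 arrays), Fn1 to Col18a1 (0.796) and Thbs2 to Loxl1 (0.767). Vcan was nearest to Fbln5 (0.751), but it was the only gene of its role, so it had none of its own to follow. These are descriptions with no test.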
